A study of Homo sapiens with 6 samples.

Results

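The genes that encode the proteins of the cytosolic ribosome were examined in RNA enriched for new transcripts from A375 cells, an established human melanoma line. Members were taken by symbol after the Ensembl identifiers of the count tables had been matched to GRCh38 gene names. They are the protein-coding genes whose symbol starts with RPL or RPS followed by a digit, together with RPLP0, RPLP1, RPLP2 and RPSA. The RPS6 kinase genes, RPS19BP1 and the RPS4Y genes were left out. This gave 88 genes of the 58243 identifiers in the tables, 55 of the large and 33 of the small subunit. Of these, 77 are the canonical genes, 1 per ribosomal protein, 8 are paralogs (RPL3L, RPL7L1, RPL10L, RPL22L1, RPL26L1, RPL36AL, RPL39L and RPS27L) and 3 are read-through genes that join a ribosomal protein gene to its neighbor. Ribosomal proteins whose names do not follow this pattern are given separately, namely FAU and RACK1.

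The samples were 3 libraries of cells carrying an empty vector (EV; B1, B2 and B3) and 3 libraries of cells carrying a plasmid for human PRL3 with an HA tag (PRL3; B9, B10 and B11). PRL3 is a phosphatase encoded by PTP4A3, and the study asked how its overexpression changes transcription. Both lines were stably transfected and kept in hygromycin B, so EV and PRL3 cells share the selection. Both were also pulsed with 500 µM 4-thiouridine (4sU) for 20 min. The labeled RNA was biotinylated, pulled down and depleted of ribosomal RNA before strand-specific library preparation. Whether a line is a single clone or a pool, and whether the libraries of a group are separate cultures, is not given in the sources used here, so p-values measure the spread between these libraries, which may be technical.

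Ribosomal proteins are made in nearly equal numbers for each ribosome, and their genes are among the most heavily transcribed in dividing cells. Most of their mRNAs begin with a cytidine followed by an unbroken run of pyrimidines, the 5′ terminal oligopyrimidine (TOP) tract. This tract lets growth signals through mTOR and LARP1 set the translation of the whole family together. Many of the genes carry small nucleolar RNAs (snoRNAs) in their introns, and the genome holds a large number of processed pseudogenes copied from their mRNAs.

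The start of the transcript is shared by most members. A TOP tract was defined as C at the start site with at least 4 more bases that are each C or T, and it was read on the gene's own strand from RefSeq start sites of GRCh38.p14. A start site was found for 70 of the 88 members. Where a gene had several, the one with the longest tract was used, for members and all other genes alike. The tract was present in 46 of 62 canonical genes (74.2%), against 5.14% of all 27305 genes in the same table. Its length in these 46 genes ran from 5 to 19 bases, with a median of 8. Among the paralogs it was present in 1 of 6, which was RPL22L1. The windows below run from 20 bases before the start site to 20 bases from it onward, with the tract in capitals. They show genes from both ends of the range of fold change, and then paralogs. RPL13A, RPS21 and RPL21 were among the most reduced members, RPS9 and RPL27A among the least reduced, and RPS10, RPL36A and RPL26 were higher in PRL3 cells.
RPL13A: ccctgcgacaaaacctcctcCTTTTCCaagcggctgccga
RPS21: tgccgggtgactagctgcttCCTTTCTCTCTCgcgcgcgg
RPL21: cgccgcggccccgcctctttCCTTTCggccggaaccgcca
RPS9: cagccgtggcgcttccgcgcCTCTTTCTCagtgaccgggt
RPL27A: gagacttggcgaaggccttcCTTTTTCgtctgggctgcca
RPS10: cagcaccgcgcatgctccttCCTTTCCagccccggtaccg
RPL36A: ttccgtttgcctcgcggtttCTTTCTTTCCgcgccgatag
RPL26: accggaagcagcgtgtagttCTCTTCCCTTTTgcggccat
RPL22L1: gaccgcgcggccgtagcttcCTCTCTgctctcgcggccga
RPL7L1: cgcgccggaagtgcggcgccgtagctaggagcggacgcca
RPS27L: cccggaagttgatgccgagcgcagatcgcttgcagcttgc
RPL26L1: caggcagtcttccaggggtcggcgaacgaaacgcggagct
These windows are chr19:49487588-49487627 (RPL13A, plus strand), chr20:62387083-62387122 (RPS21, plus), chr13:27251538-27251577 (RPL21, plus), chr19:54200838-54200877 (RPS9, plus), chr11:8682772-8682811 (RPL27A, plus), chr6:34426050-34426089 (RPS10, minus), chrX:101390991-101391030 (RPL36A, plus), chr17:8383174-8383213 (RPL26, minus), chr3:170870176-170870215 (RPL22L1, minus), chr6:42879596-42879635 (RPL7L1, plus), chr15:63157458-63157497 (RPS27L, minus) and chr5:172958709-172958748 (RPL26L1, plus). Canonical genes with and without a tract at the annotated start had similar medians. The median log2 fold change of PRL3 against EV was -1.60 in the 46 with it and -1.54 in the 16 without it. Both groups held genes from below -2 to above 0. The split depends on where the start is annotated. In RPL10A and RPL9, counted as without a tract, a pyrimidine run begins a few bases after the annotated start. The medians therefore do not compare TOP mRNAs with other mRNAs.

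Gene counts per library ran from 36532207 to 57952035. The transfected gene matched its label, with 217 ± 59.4 normalized counts of PTP4A3 in EV and 24387 ± 3796 in PRL3 (SD, n = 3 each). Normalized counts are counts scaled by TMM factors to the mean library. The A375 label was checked against melanocyte markers. SOX10, MITF, S100B, S100A1 and TFAP2A were present in every library. SOX10 (log2 fold change -0.85, SE 0.18), S100B (-1.38, SE 0.16) and S100A1 (-2.60, SE 0.30) were lower and TFAP2A (1.19, SE 0.17) higher in PRL3. Pigment genes were sparse or nearly absent. Raw counts per library were 26 to 61 for PMEL, 0 to 20 for TYRP1 and 1 to 11 for DCT. The defining pigment genes TYR and MLANA had at most 2 reads in any library. Reads on no annotated exon made up 28.7 to 41.1% of uniquely aligned reads in EV and 62.8 to 69.1% in PRL3, and TMM factors were 0.816 to 0.894 in EV and 1.12 to 1.25 in PRL3. Their part in the results below was not tested.

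Ribosomal protein genes took a smaller part of the exonic counts in PRL3 libraries. They held 10.3, 11.02 and 9.46% of gene counts in EV B1, B2 and B3, and 4.28, 5.33 and 4.85% in PRL3 B9, B10 and B11. The groups did not overlap, and the mean fell from 10.2 ± 0.785% to 4.82 ± 0.527% (SD, n = 3 each), a 2.13-fold difference (two-sided exact permutation test over libraries, p = 0.1, which is as low as 3 against 3 can go). As a share of all uniquely aligned reads, exonic or not, the means were 6.39 ± 1.11% and 1.53 ± 0.299%, a 4.17-fold difference. Among the 100 genes with the most counts in a library, 46 to 48 were ribosomal protein genes in EV and 21 to 31 in PRL3. In bulk RNA of a cell line, a change in some of the cells and a change in every cell cannot be told apart. A share of counts also falls when counts on other genes rise, and this was not tested. The paper turned to intronic reads for its later analysis, to avoid possible effects of splicing during transcription and of carried-over mRNA. The counts used here are exonic, so a lower count is not by itself a measure of lower new transcription.

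**Figure D1:**
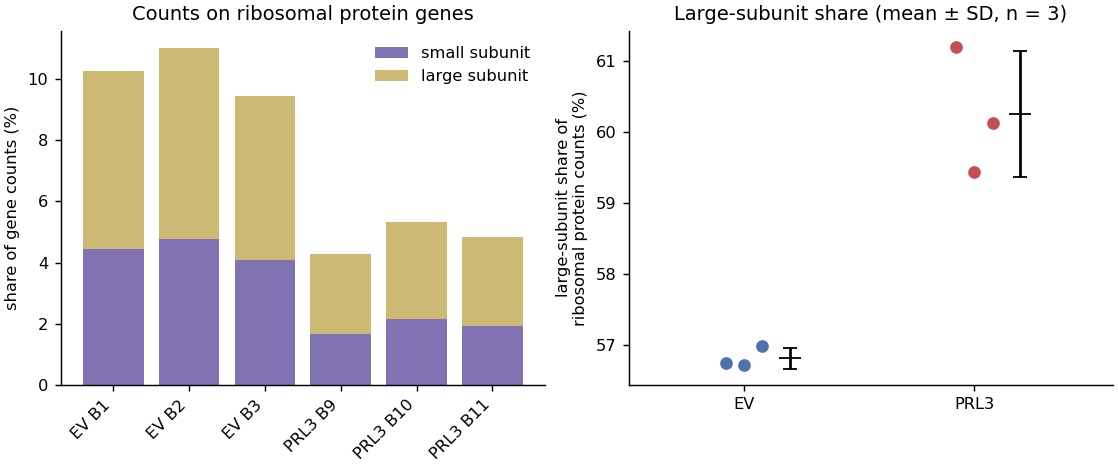
Left, bars give the percentage of gene counts on large- and small-subunit ribosomal protein genes in each of the 6 libraries. Right, points give the large-subunit share of ribosomal protein counts in percent per library with the mean and SD beside them. The 3 EV libraries total 9.46 to 11.02% and the 3 PRL3 libraries 4.28 to 5.33%, and the large-subunit share is near 57% in EV and 59.4 to 61.2% in PRL3 (this axis does not start at 0).

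Gene by gene, the reduction ran through nearly the whole family. Of the 85 members that passed the low-count filter, 76 were lower in PRL3, 5 were higher and 4 did not pass the test at an adjusted p of 0.05 (edgeR quasi-likelihood test with Benjamini-Hochberg adjustment over all 23884 genes tested). Over all tested genes, 22.7% were lower and 20% were higher. Over the 14443 protein-coding genes among them, 31.6% were lower and 15.2% higher, with a median log2 fold change of -0.15. The median log2 fold change was -1.54 over the members (quartiles -1.78 and -1.13) and 0.11 over all genes tested. Libraries of the groups did not overlap for 83 of the 85, against 56.3% of all genes tested. The exceptions were RPL17 and RPL22L1.

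**Figure D2:**
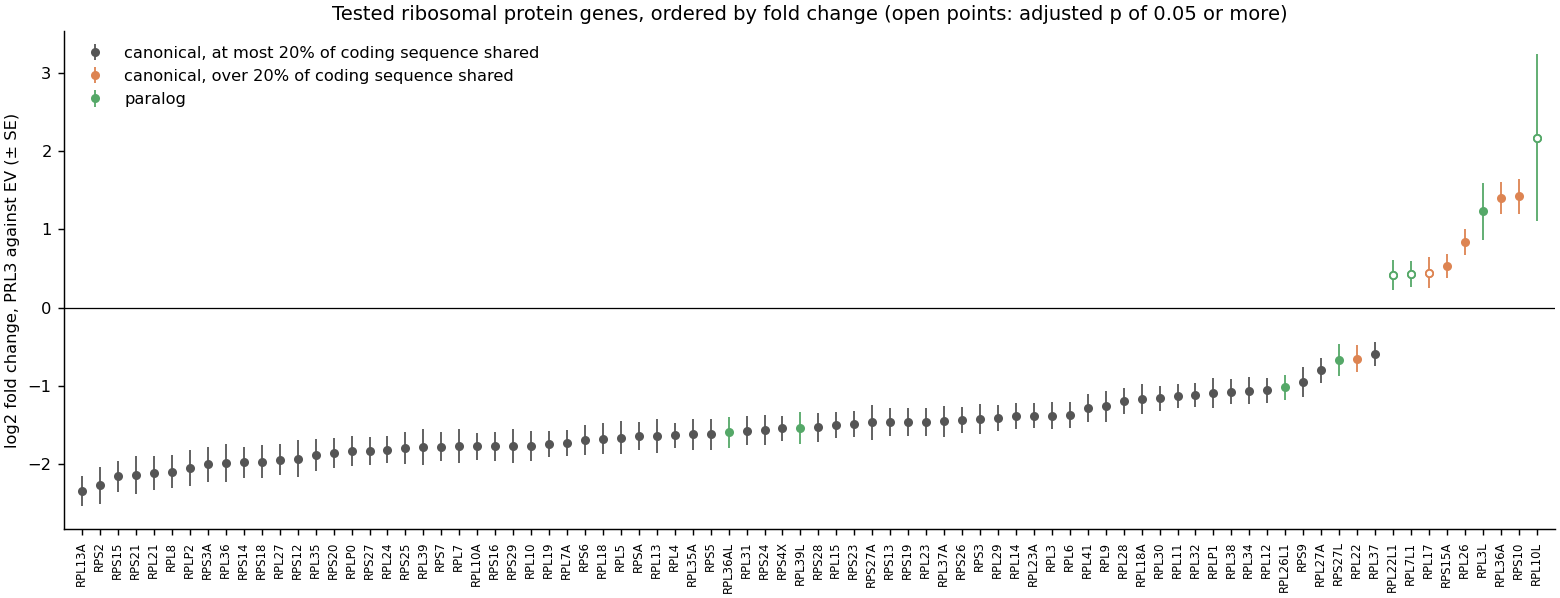
Points give the log2 fold change of PRL3 against EV, and bars its standard error, for tested members in order. Open points did not pass the adjusted p of 0.05. Canonical genes that share little coding sequence with another annotated gene (gray) all lie below 0, between -2.35 and -0.60, while the 9 positive values belong to 5 canonical genes with shared coding sequence (orange) and 4 paralogs (green), and RPL10L has the widest error.

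Among the members with the lowest fold changes were RPL13A, RPS2, RPS15, RPS21 and RPL21. RPL13A, a large-subunit protein also known for a role outside the ribosome in interferon-induced silencing of inflammatory mRNAs, had 159465, 183090 and 137573 normalized counts in EV and 27658, 38874 and 27656 in PRL3. Every PRL3 library was far below every EV library, and the log2 fold change was -2.35 (SE 0.19, adjusted p = 7.5e-06). RPS2, which lies at the mRNA entry channel of the small subunit, had 195632, 300508 and 204768 in EV and 37906, 64024 and 42880 in PRL3. EV B2 was the highest EV library, the groups were far apart and the change was -2.28 (SE 0.23, adjusted p = 1.5e-05). RPS15 (-2.16, SE 0.19), RPS21 (-2.14, SE 0.25) and RPL21 (-2.12, SE 0.22) fell to between 22.4 and 23.0% of their EV level.

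Genes of the ribosomal stalk, the flexible arm of the large subunit that recruits translation factors, all fell but by unequal amounts. RPLP0, the base of the stalk, had 215994, 237178 and 186383 normalized counts in EV and 47033, 74760 and 57675 in PRL3, a log2 fold change of -1.83 (SE 0.20, adjusted p = 1.8e-05). RPLP2 changed by -2.05 (SE 0.24), while its partner in the stalk dimer, RPLP1, changed by -1.10 (SE 0.19). RPLP1 had 61564, 72173 and 57546 in EV and 21543, 34714 and 33142 in PRL3, and the groups were separate. RPL12, which anchors the stalk base to ribosomal RNA, changed by -1.06 (SE 0.16).

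RPL5 and RPL11 form with 5S ribosomal RNA the particle that binds MDM2 when ribosome assembly is disturbed. RPL5 had 50086, 33888 and 29830 normalized counts in EV and 9574, 13234 and 13082 in PRL3 (log2 fold change -1.66, SE 0.21, adjusted p = 4.6e-05). RPL11 had 63153, 63935 and 50438 in EV and 25452, 28550 and 27066 in PRL3 (-1.13, SE 0.16, adjusted p = 9.6e-05). EV and PRL3 libraries were separate for both, and RPL5 varied more within EV.

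On the small subunit, RPS6, the substrate of S6 kinase, changed by -1.70 (SE 0.19), and RPSA, which also serves as a laminin receptor, by -1.65 (SE 0.18). RPS19, the gene most often mutated in Diamond-Blackfan anemia, had 94308, 114601 and 92258 normalized counts in EV and 30062, 43945 and 35098 in PRL3. All 3 PRL3 libraries were below the EV libraries, at a log2 fold change of -1.46 (SE 0.18, adjusted p = 4e-05). RPS27A, made as a fusion with ubiquitin, changed by -1.47 (SE 0.22), and RPS4X, the X-linked form of RPS4, by -1.55 (SE 0.16). Of 9 genes listed for Diamond-Blackfan anemia, 8 were lower and 1, RPS10, had higher counts, while 22.7% of all genes tested were lower. All 7 listed genes of the mRNA channel fell (median -1.62), as did 6 of 8 at the tunnel where the nascent chain leaves the ribosome (median -1.48). The other 2 of these 8 were RPL17 and RPL26. RPS10, RPL17 and RPL26 share much of their coding sequence with other annotated genes, as given below. Under that annotation, which is later than the one used for counting, their counts would cover only part of each gene.

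The reduction had a lower median in small-subunit than in large-subunit genes. Of the tested large-subunit members 46 of 53 were lower and 3 higher (median log2 fold change -1.41), and of the small-subunit members 30 of 32 were lower and 2 higher (median -1.67). Over canonical genes the medians were -1.46 for 46 large-subunit genes and -1.70 for 31 small-subunit genes. The difference can be tested over libraries through the share of ribosomal protein counts that fall on large-subunit genes, which does not depend on the scaling between libraries. This share was 56.7, 56.7 and 57.0% in EV and 61.2, 59.4 and 60.1% in PRL3. The groups did not overlap, at 56.8 ± 0.146% and 60.2 ± 0.885% (SD, n = 3 each; two-sided exact permutation p = 0.1, again the lowest this design allows). Counts on large-subunit genes were thus 1.32 ± 0.00786 times those on small-subunit genes in EV and 1.52 ± 0.0563 times in PRL3.

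The canonical genes that did not fall shared coding sequence with other annotated genes. In GENCODE release 44, 7 of the 77 canonical genes have more than 20% of their coding bases inside exons of another gene on the same strand, and the next gene, RPS2, has 9.50%. The 20% limit was set after the values were seen. All 70 canonical genes under this limit were lower in PRL3, with log2 fold changes from -2.35 to -0.60 (median -1.64; -1.54 for 42 large-subunit and -1.74 for 28 small-subunit genes). Of the 7 above it, 4 were higher, 2 were lower and 1 did not pass the test (median 0.53). The counter used by the authors leaves out a read that overlaps 2 genes. Under these overlaps, counts of the 7 would cover only the part of each gene that is its own. The authors counted with Ensembl release 91, in which the overlaps may differ. Reads left out as ambiguous were 4.67 ± 0.293% of uniquely aligned reads in EV and 2.15 ± 0.438% in PRL3 (SD, n = 3 each). The part of this counting in the 7 values was not tested.

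RPS10, a protein of the small-subunit beak, shares 56.9% of its coding bases with the read-through gene RPS10-NUDT3. It had 515, 527 and 877 normalized counts in EV and 1398, 1811 and 1943 in PRL3, so every PRL3 library was above every EV library (log2 fold change 1.42, SE 0.22, adjusted p = 0.00025). RPL36A, of which 67.3% is shared with RPL36A-HNRNPH2, had 2069, 1610 and 3003 in EV and 5348, 5643 and 6688 in PRL3 (1.40, SE 0.21, adjusted p = 0.00016). RPL26, a protein at the tunnel exit, shares 60.7% with an unnamed gene and had 4048, 3552 and 3727 in EV and 5595, 6640 and 8032 in PRL3 (0.84, SE 0.16, adjusted p = 0.0011). When libraries were scaled by all uniquely aligned reads, RPL26 was no longer called (0.36, adjusted p = 0.13). In these 3 genes EV counts were far below those of the 70, of which the lowest in the mean of EV was RPS26 at 28094.

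RPS15A, which shares 36.9%, had 10273, 8871 and 9407 normalized counts in EV and 11853, 15238 and 14218 in PRL3 (log2 fold change 0.53, SE 0.15, adjusted p = 0.012). It was called higher by a narrow margin, since without PRL3 B10 or without PRL3 B11 the adjusted p was 0.057 and 0.055, and with scaling by all uniquely aligned reads the change was 0.06 (adjusted p = 0.83). RPL17, of which 98.2% is shared, mostly with RPL17-C18orf32, had 1196, 1470 and 1278 in EV and 1301, 1816 and 2251 in PRL3. The groups overlapped and the change of 0.44 did not pass the test (SE 0.20, adjusted p = 0.087), while without PRL3 B9 it did (0.64, adjusted p = 0.026), as it did with other count filters, protein-coding genes only and upper-quartile or library-size scaling (0.47 to 0.93). RPL22 (-0.65, SE 0.17, 59.4% shared) was lower, though less so than most of the family, and lost its call without PRL3 B9 (adjusted p = 0.055) or with library-size scaling (-0.16, adjusted p = 0.40).

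The 3 genes that fell least among those without shared coding sequence were RPL37, RPL27A and RPS9, and these were named after their values were seen. RPL37 had 57554, 60493 and 49340 normalized counts in EV and 33221, 39442 and 37999 in PRL3 (log2 fold change -0.60, SE 0.16, adjusted p = 0.0073). RPL27A changed by -0.80 (SE 0.16) and RPS9 by -0.95 (SE 0.19). In all 3, PRL3 libraries were below EV libraries. With library-size scaling RPL37 (-0.10) and RPL27A (-0.31) were no longer called.

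The paralogs did not move as a block. RPL36AL, RPL39L, RPL26L1 and RPS27L were lower, RPL3L was higher, and RPL22L1, RPL7L1 and RPL10L did not pass the test, with a median log2 fold change of -0.13 over the 8. The sign of this median depended on the processing, from -0.63 with at least 10 counts in every library to 0.36 with library-size scaling, and it was 0.0306 without EV B1. RPL36AL, a retrogene, had 9603, 6801 and 5572 normalized counts in EV and 2303, 2308 and 2652 in PRL3 (-1.60, SE 0.19, adjusted p = 3.6e-05), while its parent RPL36A was higher. RPL39L, best known from male germ cells, had 770, 1031 and 717 in EV and 275, 321 and 268 in PRL3 (-1.54, SE 0.21, adjusted p = 7.6e-05), close to the -1.78 of RPL39. RPL26L1 had 4056, 3472 and 3045 in EV and 1785, 1814 and 1610 in PRL3 (-1.02, SE 0.16). RPL26L1 thus went in the opposite direction to the counts of RPL26, as RPL36AL did to those of RPL36A. Where the same overlaps hold in the annotation used for counting, counts of RPL26 and RPL36A leave out their shared sequence. The direction of each parent as a whole is therefore uncertain.

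RPS27L had 6198, 4005 and 3721 normalized counts in EV and 2291, 3155 and 3294 in PRL3 (log2 fold change -0.67, SE 0.21, adjusted p = 0.019). The call was lost without EV B1 (adjusted p = 0.074), without PRL3 B9 (0.11) and with upper-quartile (0.052) or library-size scaling (0.45). Its parent RPS27 changed by -1.83 (SE 0.18). RPL3L, a form of RPL3 of striated muscle, was sparse, with 60.9, 112 and 177 in EV and 354, 254 and 219 in PRL3 (1.23, SE 0.36, adjusted p = 0.015), and its call was lost without PRL3 B9 (1.02, adjusted p = 0.086) and with scaling by all uniquely aligned reads (0.77, adjusted p = 0.082). RPL3 itself changed by -1.38 (SE 0.17).

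RPL22L1, which is known to be raised when RPL22 is lost, had 5982, 4511 and 6347 normalized counts in EV and 5599, 8389 and 8526 in PRL3. PRL3 B9 lay among the EV libraries, and the log2 fold change of 0.42 (SE 0.19, adjusted p = 0.093) did not pass the test. It passed without that library (0.60, adjusted p = 0.029), and also with other count filters (0.45 with none, 0.46 with at least 10 counts in every library), with protein-coding genes only and with upper-quartile or library-size scaling. RPL7L1 had 8916, 6306 and 7915 in EV and 11876, 9779 and 9452 in PRL3. These groups did not overlap, and the change of 0.43 (SE 0.17, adjusted p = 0.054) passed without EV B1 (0.55, adjusted p = 0.020), with limma-voom and under the same changes of filter and scaling. The parent RPL7 changed by -1.78 (SE 0.22). RPL10L, an autosomal copy of X-linked RPL10 active in the testis, had raw counts of 4, 5 and 0 in EV and 17, 19 and 16 in PRL3. It entered the test through the PRL3 group alone and its change of 2.18 had a standard error of 1.07 (adjusted p = 0.12).

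**Figure D3:**
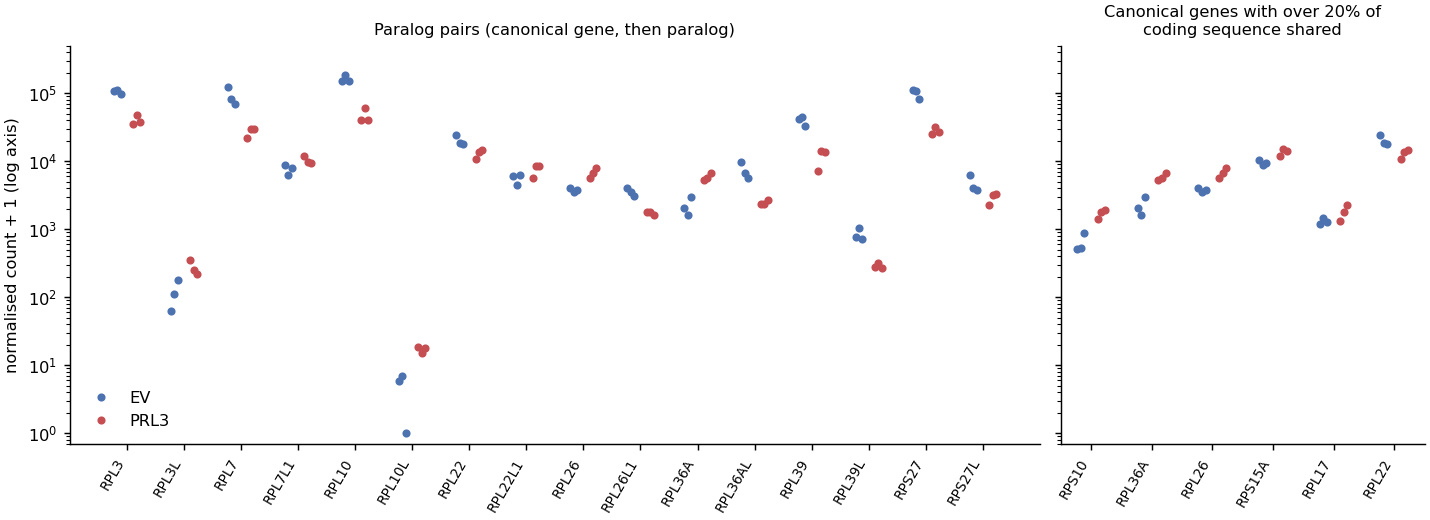
Points give normalized counts plus 1 on a log axis for each of 3 EV (blue) and 3 PRL3 (red) libraries. On the left, each canonical gene is followed by its paralog. RPL3, RPL7, RPL10, RPL39 and RPS27 fall while RPL3L rises. RPL7L1 also lies higher in every PRL3 library but did not pass the test. On the right are 6 of the 7 canonical genes with over 20% of coding bases shared, 4 of them higher in PRL3.

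The 3 read-through genes, RPL17-C18orf32, RPL36A-HNRNPH2 and RPS10-NUDT3, had 0 counts in all 6 libraries and were not tested. In the current annotation, all of their coding bases lie inside exons of the genes they join, so a read on them would be ambiguous under the counting rule. A count of 0 is therefore no measure of their transcription.

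Members with and without a snoRNA in the gene had similar medians. Of the 28 tested members with a snoRNA inside the gene on the same strand, 27 were lower (median log2 fold change -1.64), and 49 of the 57 without one were lower and 5 higher (median -1.50). Over canonical genes alone the medians were -1.64 and -1.55. RPL4, with 5 annotated snoRNAs, changed by -1.64 (SE 0.16). The counts are of exonic reads of the host gene, and snoRNAs have identifiers of their own.

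Levels between genes were compared per length, as TPM, the abundance of transcripts after division by the exonic bases of each gene and scaling to a fixed total. Over the 70 canonical genes with little shared coding sequence, the median TPM was 1070 ± 105 in EV and 487 ± 24.0 in PRL3 (SD, n = 3 each). RPS27 was among the highest in both groups, at 4732 ± 829 TPM in EV and 1788 ± 258 in PRL3, and it was also the highest member per kb of MANE transcript in both. Other leading genes changed place with the length used. RPS12 led EV at 5517 ± 934 TPM but not per kb of MANE transcript. The order was largely kept, with a Spearman correlation of 0.93 across these 70 genes between the group means, which share library preparation and gene lengths. The SD of log2 TPM over the genes was 1.03 ± 0.0314 per EV library and 0.886 ± 0.0402 per PRL3 library, a smaller spread between genes in PRL3. Across the same genes the log2 fold change had a Spearman correlation of 0.42 with the length of the MANE transcript and of -0.25 with the EV count. The EV count is itself part of the fold change, so the value of -0.25 is not independent of it. Annotated lengths are uncertain for some genes, since the MANE transcripts of RPL37 and RPL14 are given as 7573 and 7136 bases.

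**Figure D4:**
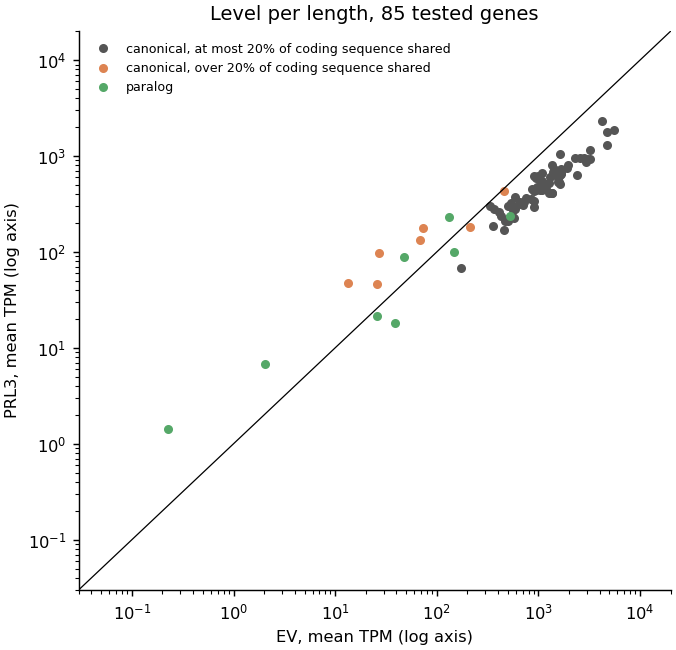
Each point is 1 of the 85 tested members, with its mean TPM in EV on the horizontal and in PRL3 on the vertical log axis, and the line marks equal values. Canonical genes with little shared coding sequence (gray) form a band below the line, most of those with shared coding sequence (orange) lie above it at lower levels, and paralogs (green) reach down to 0.226 TPM for RPL10L.

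Ribosomal proteins outside the naming pattern fell with the family. FAU, whose product is cut into a ubiquitin-like protein and the small-subunit protein eS30, had 21441, 29690 and 20008 normalized counts in EV and 4365, 6498 and 5205 in PRL3 (log2 fold change -2.15, SE 0.20, adjusted p = 1e-05). RACK1, a scaffold for kinases on the small subunit, changed by -1.31 (SE 0.16). PRL3 libraries were below EV libraries in both.

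Other genes with TOP mRNAs had a smaller median change. The 18 listed include ribosomal proteins such as FAU and RACK1, so the list is not separate from the family. Of these 18, 17 were tested, 15 were lower and 2 did not pass the test (median log2 fold change -0.97). Over all protein-coding genes tested, 31.6% were lower and 15.2% higher (median -0.15). The elongation factors EEF1A1 and EEF2 changed by -1.46 (SE 0.17) and -1.43 (SE 0.18), EEF1B2 by -2.19 (SE 0.19), and PABPC1, the poly(A)-binding protein, by -1.04 (SE 0.18). NAP1L1 (-0.30, SE 0.20) and HNRNPA1 (-0.23, SE 0.16) did not pass the test, and EEF1G, listed at 0 counts in all 6 libraries, was not tested. Of 78 mitochondrial ribosomal protein genes, 58 were lower and 3 higher (median -0.88), the latter being MRPL46 (1.41, SE 0.16), MRPS24 (1.66, SE 0.46) and MRPL38 (0.72, SE 0.26). They took 0.590 ± 0.0239% of gene counts in EV and 0.436 ± 0.0107% in PRL3 (SD, n = 3 each), a 1.35-fold difference against 2.13-fold for the cytosolic family.

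**Figure D5:**
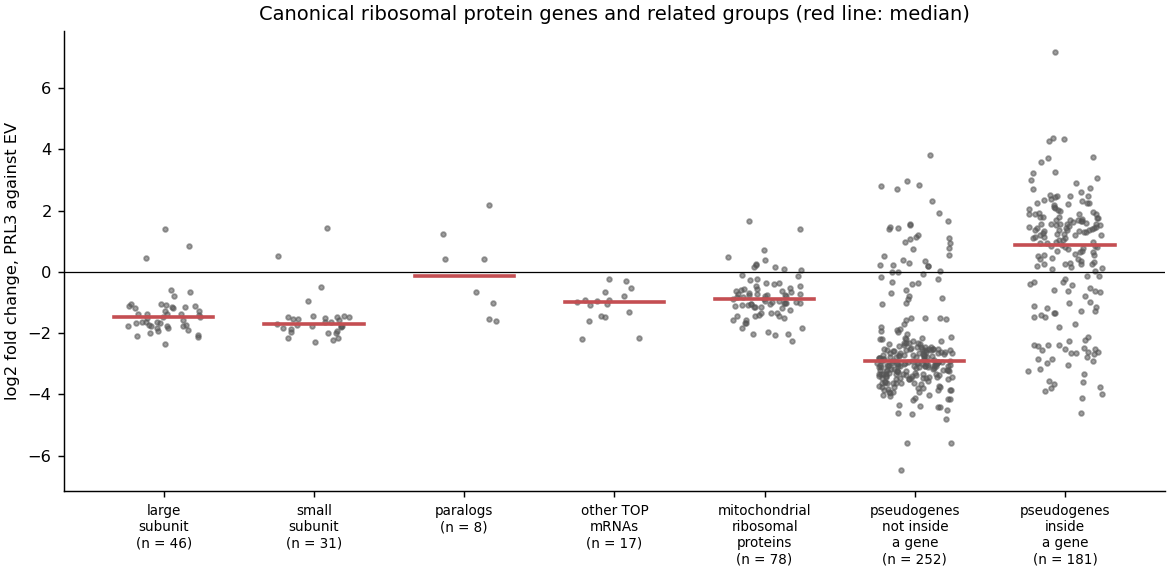
Each point is a tested gene, with its log2 fold change of PRL3 against EV on the vertical axis, and red lines are medians. Medians lie at -1.46 and -1.70 for canonical large- and small-subunit genes, -0.13 for paralogs, -0.97 for other TOP mRNAs and -0.88 for mitochondrial ribosomal proteins. Pseudogenes split, at -2.90 outside and 0.89 inside a gene of the same strand.

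Pseudogenes of the family gave a different picture according to where they lie. GENCODE lists 1604 pseudogenes named for a member among the identifiers, of which 433 passed the low-count filter. Of these 242 were lower and 68 higher (median log2 fold change -2.31). The median was -1.11 with no low-count filter and -1.19 with DESeq2, which take in more sparse pseudogenes, and 31 were higher without PRL3 B9. A split made after the values were seen set 181 that lie inside another gene on the same strand apart from 252 that do not. Inside a gene, 41 were lower and 60 higher (median 0.89), and outside 201 were lower and 8 higher (median -2.90). A sparse pseudogene can pass the low-count filter through either group alone, and it is then selected for that direction. RPS15AP24, outside a same-strand gene, had raw counts of 102, 44 and 56 in EV and 4, 8 and 16 in PRL3. The split was not repeated with such pseudogenes set aside. The share lower was 22.7% inside a gene and 79.8% outside. Over all genes tested, 22.7% were lower and 20% higher, so the lower share inside a gene was that of all genes. Reads on a processed pseudogene can come from its parent mRNA where the sequences are nearly alike, so these values are uncertain as measures of the pseudogenes. In all, pseudogenes held 0.257 ± 0.0832% of gene counts in EV and 0.112 ± 0.00835% in PRL3 (SD, n = 3 each).

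The 3 pseudogenes with the most counts were RPS2P5, RPL32P3 and RPL41P1. RPS2P5 had 22499, 36875 and 21690 normalized counts in EV and 3170, 7216 and 3683 in PRL3 (log2 fold change -2.53, SE 0.30), against -2.28 for RPS2. RPL41P1 changed by -1.51 (SE 0.19), against -1.29 for RPL41. RPL32P3 lies inside an unnamed gene of the same strand, had 1837, 2151 and 2507 in EV and 4907, 4468 and 3876 in PRL3, and was higher (1.03, SE 0.16), whereas RPL32 changed by -1.12 (SE 0.16). Of 40 tested pseudogenes of the 7 genes with shared coding sequence, 22 were lower, 4 higher and 14 did not pass the test (median -2.04). The 21 of them outside same-strand genes held 17 of the lower ones (median -3.02), and all 4 higher ones lay inside a gene. The limit of the low-count filter given above holds for these too. RPL17P7, for example, had a mean of 1157 normalized counts in EV and 148 in PRL3 (-2.96, SE 0.37).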

How the data were processed

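The 6 libraries of 4sU-labeled RNA were 3 EV and 3 PRL3. Paired reads had been mapped to GRCh38 (STAR 2.5.1b) by the authors, who deposited counts of reads per Ensembl gene made with HTSeq 0.6.1, with its reverse-strand setting and Ensembl release 91. These deposited counts are whole numbers without normalization. Reads aligned to several places were not counted, which touches members with near-identical pseudogenes, and reads overlapping 2 genes were set aside as ambiguous.

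Symbols, biotypes, coordinates and overlaps came from GENCODE release 44, a later release on the same build, in which 57532 of the 58243 identifiers were found. PRL3 was compared with EV by edgeR 4.0.16 under R 4.3.3 (TMM scaling, default low-count filter with the group as argument, quasi-likelihood test, Benjamini-Hochberg adjustment over the 23884 genes kept, threshold 0.05). The fit was tested on simulated counts first. Normalized counts are counts over the effective library size, times its mean. TPM used the exonic bases of all transcripts of a gene. Start-site windows came from the RefSeq promoter table of GRCh38.p14. Libraries were grouped by their titles, and no pair was alike enough to be 1 library deposited again (the mean chi-square per gene was 24.7 for the closest pair).

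Genes were named by a rule: members of the paralog pairs and RPS4X, 10 members of fixed roles, the 6 lowest and 6 highest by fold change, tested members not called lower, members at 0, the 3 pseudogenes with the most counts, and FAU and RACK1. A few genes that the rule names are not reported here, and figures that label genes leave out those they would show. The members, lists and rule were chosen with earlier results of these data known. Alternatives were scaling by RLE, by the upper quartile, by library size alone and by all uniquely aligned reads, TMM factors without the members, DESeq2 1.42.0, limma-voom (limma 3.58.1), looser and stricter count filters, protein-coding genes only, an adjusted p of 0.01, canonical genes only, snoRNAs of either strand and leaving out each library.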

Additional observations from a re-analysis of the deposited data

How the results depend on the processing

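The count of lower members stayed within 71 to 76 under every alternative run, and the 70 canonical genes with little shared coding sequence were all lower except under scaling by library size alone, where 68 were. That scaling and scaling by all uniquely aligned reads moved the median of all genes from 0.11 to 0.60 and to -0.37, and members moved with it. With library size alone, medians were -1.05 for all members, -0.91 for large-subunit and -1.18 for small-subunit genes, -1.16 and -1.01 for members with and without a snoRNA, -1.81 for pseudogenes, -0.39 for mitochondrial ribosomal proteins and -0.46 for other TOP mRNAs. With all uniquely aligned reads they were -2.02, -1.90, -2.16, -2.12, -1.98, -2.85, -1.36 and -1.46, and the share of counts on the members was 4.17-fold higher in EV. Upper-quartile scaling gave -1.23 for large-subunit genes, -1.32 for members without a snoRNA, -0.71 for mitochondrial ribosomal proteins and -0.77 for other TOP mRNAs. Testing protein-coding genes only gave -1.36 for all members, -1.23 for large-subunit genes, -1.32 without a snoRNA, -0.70 for mitochondrial ribosomal proteins and -0.78 for other TOP mRNAs. The median of the paralogs had no stable sign, at 0.36 with library size alone, 0.0551 under upper-quartile scaling, 0.0546 with protein-coding genes only, -0.60 with all uniquely aligned reads and -0.63 with at least 10 counts in every library, and it ran from -0.227 to 0.0306 with 1 library left out (above 0 without EV B1). Higher members numbered 8 with no low-count filter, with upper-quartile scaling, with at least 10 counts in every library and with protein-coding genes only, 9 with library size alone, 2 with all uniquely aligned reads and 3 at an adjusted p of 0.01. For pseudogenes, 144 were lower with at least 10 counts in every library, 43 were higher with all uniquely aligned reads and 36 at an adjusted p of 0.01, and the median was -1.19 with DESeq2 and -1.11 with no low-count filter. With 1 library left out, 31 to 93 pseudogenes were higher (31 without PRL3 B9), their median was -2.60 to -1.72 (highest without EV B2) and that of other TOP mRNAs was -1.13 to -0.85. The cause of these shifts was not tested. The median of small-subunit minus that of large-subunit canonical genes with little shared coding sequence stayed between -0.22 and -0.15. Of 42 named genes, 33 kept their call under every alternative that tested them; RPL10L passed the test with library size alone (adjusted p = 0.048). No paired analysis was possible because EV and PRL3 libraries carry different numbers. Depth limits RPL10L and RPL3L most.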
